A study of Mus musculus with 4 samples.

Results

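Mouse embryonic stem (ES) cells of the E14tg2a line were transfected with small interfering RNAs (siRNAs) against Rif1 and profiled on Agilent one-colour expression arrays, 1 array from cells collected at 48 h and 1 from cells collected at 72 h. The comparison described here is 72 h against 48 h of Rif1 siRNA, and asks which transcripts went on rising, faded or came back while the Rif1 transcript itself returned. Its members were the 27521 of 39429 non-control probes whose signal was well above background, by the scanner software's flag, on both Rif1 siRNA arrays. Of these, 23768 carried a gene symbol, for 17627 distinct symbols. The other 2 arrays of the series, untreated E14tg2a cells and E14tg2a cells 72 h after control siRNA, served as references. No control siRNA array from 48 h was available to the comparison, so time after transfection and the return of Rif1 cannot be told apart. All 4 cultures were kept in serum medium with leukemia inhibitory factor (LIF). They were of 1 established line, grown without feeder cells. With 1 array per condition no difference had a replicate check, no test was made, and every count below is a count of probes past a stated fold.

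Rif1 is a large nuclear protein that sets the timing of DNA replication, brings protein phosphatase 1 to replication origins, shapes the choice of repair pathway at DNA breaks and helps to keep chromatin silent. In cultures of mouse ES cells a small fraction of cells passes at any time through a state with transcripts typical of the 2-cell embryo (2C genes), among them the Zscan4, Tcstv, Usp17l and Gm4340 families. Rif1 is known to hold down these genes in ES cells. siRNAs act for a limited time, since they are diluted as cells divide.

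Both siRNAs given to the cells against Rif1 are shown as their antisense (guide) strands, 5′ to 3′, because transcripts with a match to the seed, guide bases 2 to 8, could in principle fall with Rif1 and come back with it. The seed is in capitals.
mRif1#2: uUUCCCUAgaggcuccuuc
mRif1NC#1: uGCAUUUAagguugaacac
The match to the first seed, TAGGGAA, was looked for in the sense-strand sequences of the array's probes and occurred in 133 of them (0.337%), of which 84 were members. Their median difference between 48 h and control siRNA was -0.04 on the log2 scale, and 0 of the 84 lay over 2-fold below control. The match to the second seed, TAAATGC, occurred in 266 probes (0.675%), of which 191 were members with a median of -0.06 at 48 h. Of those, 3 (1.57%) lay over 2-fold below control at 48 h and 0 came back by 72 h, against 0.876% of all members that lay so far below control. Probes cover only 60 bases or fewer of a transcript, so the rest of each transcript was not searched.

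The 2 Rif1 siRNA arrays differed little from each other. Levels are given throughout as the probe's signal divided by the 75th percentile of signals on its array, and differences as log2. The 72 h minus 48 h difference had a median of -0.01 and a standard deviation (SD) of 0.28 over the 27521 members. Over 2-fold, 113 probes were higher (0.411%) and 159 lower (0.578%) at 72 h, and over 1.5-fold 474 were higher (1.72%) and 595 lower (2.16%). With normexp background correction 23 were over 2-fold higher and 44 lower. Repeated spots of a probe within an array differed by an SD of 0.0621 to 0.0670, which gives a spot error of 0.0942 for a difference between arrays and leaves out differences between cultures. Over the 22518 probes well above background on all 4 arrays, the SD was 0.21 for 72 h minus 48 h, 0.25 for control siRNA minus untreated, 0.47 for 48 h minus control siRNA and 0.45 for 72 h minus control siRNA. The 48 h and 72 h arrays of Rif1 siRNA were thus about as close to each other as the 2 reference arrays were.

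Most of the large differences came from dim probes. Of 2755 members with a mean level below 0.02, 1.78% differed by over 2-fold, and of 6797 between 0.02 and 0.1, 2.97% did. The share was 0.193% of 8309 members between 0.1 and 1 and 0.0766% of 6530 members between 1 and 10. None of 3130 members above 10 differed by over 2-fold. At the edge of membership the lowest member level was 0.00779 at 48 h and 0.00630 at 72 h, and the highest level of a probe not well above background was 0.0120 and 0.00965. Genes named for the size of their change were therefore taken from the 17969 members with a mean level of at least 0.1. Among these the 72 h level was more than 2-fold up for 8 probes and more than 2-fold down for 13, 2 of the latter without a gene symbol, among them the probe with the largest change at this level, -4.17.

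**Figure D1:**
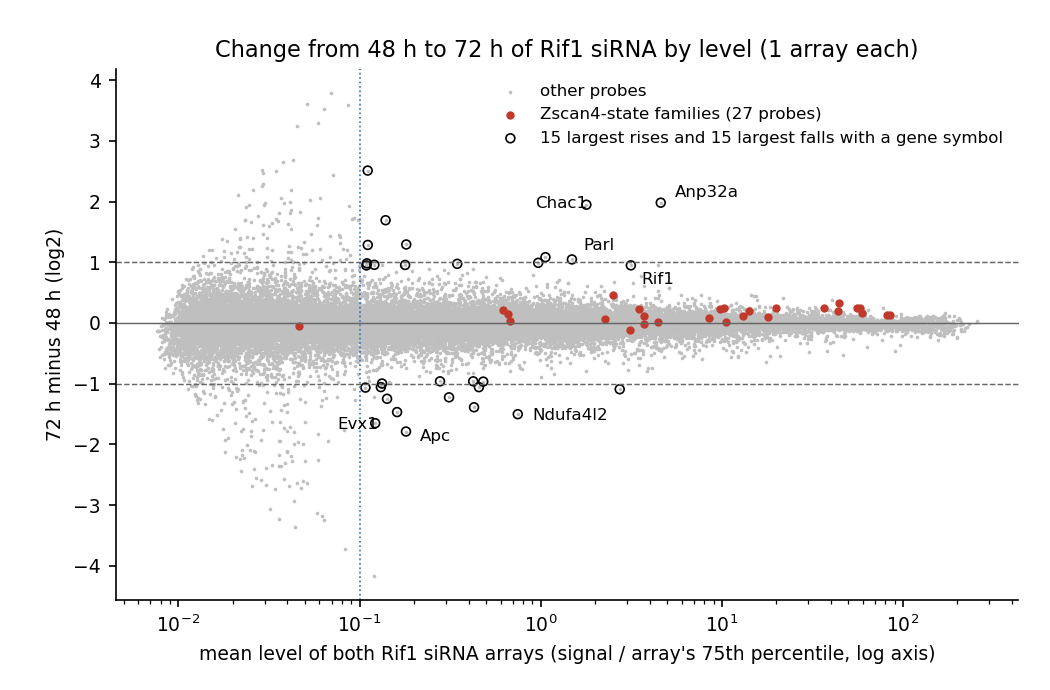
Difference between 72 h and 48 h of Rif1 siRNA (log2, vertical axis) against the mean level of both arrays (signal over the array's 75th percentile, log axis), 1 point per probe for 27521 members. The cloud is widest at levels from 0.02 to 0.1 and narrows with level above that. The 27 probes of the Zscan4-state families (red) lie close to 0. The 15 largest rises and 15 largest falls (rings) lie near or past the dashed 2-fold lines. They were taken among probes with a gene symbol and a mean level of at least 0.1 (right of the dotted line).

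The target itself was down at 48 h and most of the way back at 72 h. The array has 1 Rif1 probe, at positions 51977508 to 51977567 of chromosome 2 (mm9). Its level was 5.55 in untreated cells, 5.42 after control siRNA, 2.15 at 48 h and 4.15 at 72 h of Rif1 siRNA. Rif1 thus stood at 39.6% of control at 48 h and at 76.5% at 72 h, a 72 h over 48 h ratio of 1.93. Untreated and control cells differed by -0.03 on the log2 scale. The level of RNA was measured, not that of the protein.

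Parl, a rhomboid protease of the mitochondrial inner membrane, had the same course on both of its probes. The first probe, on chromosome 16, read 2.99 in untreated cells, 3.05 after control siRNA, 0.970 at 48 h and 2.00 at 72 h. The other read 8.79, 8.70, 3.01 and 5.87 in the same order. Parl was therefore at 31.9% and 34.6% of control at 48 h and at 65.8% and 67.5% at 72 h, with untreated and control cells nearly equal, as for Rif1. Neither the Rif1 probe nor the Parl probes held a seed match, and the longest run of either siRNA in a Parl probe was 6 bases. Whether the siRNAs act on the Parl transcript outside its probes was not tested.

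In all, 241 members were over 2-fold below control siRNA at 48 h (0.876%), and 66 of them came back by over 1.5-fold at 72 h, 9 fell further by over 1.5-fold and 166 did neither. The number that came back was 14 with normexp background correction, 106 with quantile normalization and 113 against untreated cells. The 48 h array enters both differences, so its own error alone puts probes among those that came back. With the level minimum 42 were lowered at 48 h, 31 came back, 0 fell further and 11 stayed. When probes were instead taken by the mean of both Rif1 siRNA arrays, a choice made after the data were seen, 12 lay over 2-fold below control at the level minimum and all 12 of them were higher at 72 h, by a median of 0.67, where 48.8% of all members were higher. Without the level minimum that choice gave 18 probes that came back and 16 that fell further.

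Several of the genes that came back had a reference that moved as well. Phox2a, a homeobox factor of autonomic neurons, read 1.2 in untreated cells, 1.47 after control siRNA, 0.648 at 48 h and 1.29 at 72 h. Epor, the erythropoietin receptor, read 0.463, 0.614, 0.294 and 0.547. Efna1, a membrane-bound ligand of Eph receptors, read 0.0944, 0.181, 0.0645 and 0.157. In all 3 the 48 h level was the lowest of the 4, and the control array lay above the untreated one, by 0.28, 0.41 and 0.94 on the log2 scale. Fam43b read 0.374, 0.565, 0.234 and 0.459, and Nyap1, an adaptor of phosphoinositide 3-kinase in neurons, read 0.356, 0.437, 0.206 and 0.377. Of the 31 probes that came back at the level minimum, 24 had untreated and control levels within 1.5-fold of each other, and 7 had a control level over 1.5-fold above untreated.

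**Figure D2:**
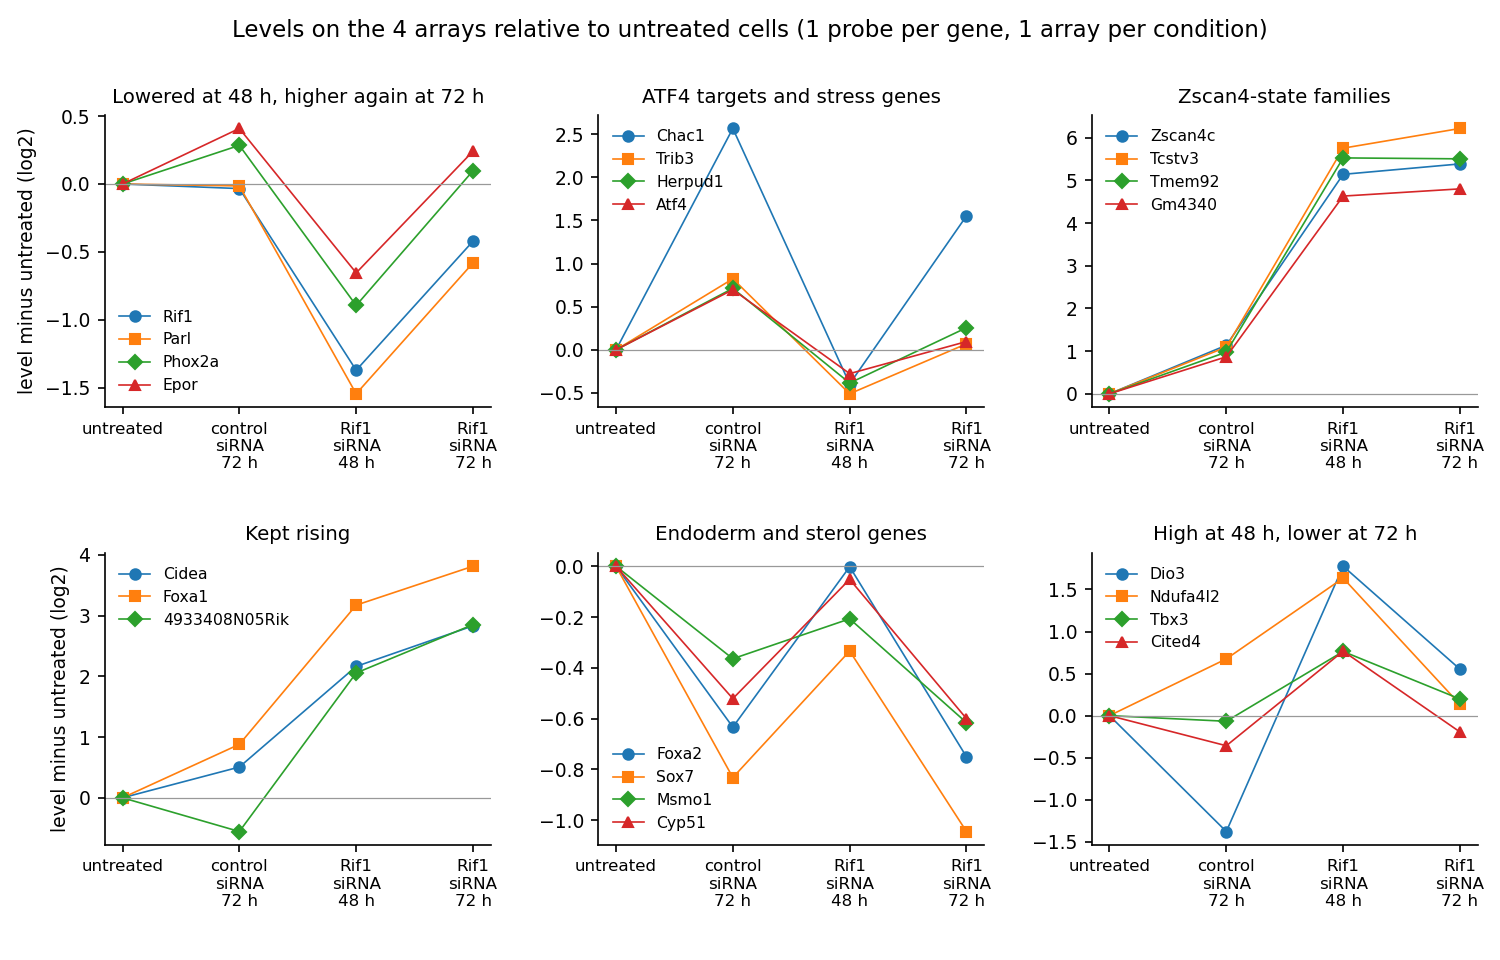
Level on each of the 4 arrays relative to untreated cells (log2, vertical axis), 1 probe per gene and 1 array per condition, in 6 groups of genes; the lines only join points of a gene and are no time course. Rif1 and Parl are level in untreated and control cells and dip at 48 h, the Zscan4-state genes are high on both Rif1 siRNA arrays, and the endoderm and sterol genes are lower on both 72 h arrays than on the other 2.

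The 2C program did not go back with Rif1. Of the 27 probes of the Zscan4-state families, all of them members, 24 were higher at 72 h than at 48 h and 0 differed by over 1.5-fold. Of all members 48.8% were higher, 1.72% over 1.5-fold higher and 2.16% over 1.5-fold lower, so that the 0 of 27 is near the share over all members. Their median difference was 0.14 (all members: -0.01), and their median distance from control siRNA was 4.18 at 48 h and 4.38 at 72 h on the log2 scale. Zscan4c, a zinc finger and SCAN domain protein that maintains telomeres in ES cells, read on its brightest probe 1.5 in untreated cells, 3.30 after control siRNA, 53.1 at 48 h and 62.8 at 72 h. Tcstv3 read 0.0393, 0.0838, 2.12 and 2.92, the largest gain of the families at 1.38-fold. Gm4340 read 2.27, 4.14, 56.3 and 63.3. The 3 probes that were lower at 72 h differed by -0.12 (Usp17lb), -0.04 (Usp17la) and -0.02 (Tmem92), near or below the spot error. The control array also lay above the untreated one for these families, by a median of 0.88, which is larger than the 72 h minus 48 h median. Of the 22 probes higher at 72 h and well above background on all 4 arrays, all 22 were also higher in control siRNA than in untreated cells, as were 24 of all 25 such probes of the families. Probes of these families share near-identical sequence between copies, so values of single members are uncertain. In bulk RNA the number of cells in the 2C-like state and the amount of RNA per such cell cannot be told apart.

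Other 2C genes were mixed. Of 33 probes 31 were members, 13 were higher at 72 h (all members: 48.8%) and 0 differed by over 1.5-fold. Their median was -0.05, with a range from -0.47 to 0.48. Zfp352, a retroposed zinc finger gene, read 0.0161, 0.0207, 0.344 and 0.421 on the probe that was raised, while its other probe, at 3.91, 4.13, 3.56 and 4.48, was not. Pramel7, a PRAME family gene of the early embryo, read 0.0647, 0.0677, 0.450 and 0.626, and Obox6, an oocyte homeobox gene, read 0.0931, 0.134, 0.331 and 0.449. These were higher at 72 h by 0.29, 0.48 and 0.44. Among those lower at 72 h were Tdpoz3 by -0.40 and Obox1 by -0.33 on dim probes at levels of 0.0431 and 0.0732 at 72 h. Dux, the homeobox factor that turns on 2C genes, read 0.0188, 0.0148, 0.0435 and 0.0377 on its brighter probe, not well above background on the reference arrays, a difference of -0.21. At the level minimum 19 probes of the list were members and their median difference was 0.01.

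At 48 h 872 members were over 2-fold above control (3.17%), and at 72 h 775 were (2.82%), with 270 over 2-fold below (0.981%). Of the 872, 9 kept rising by over 1.5-fold, 142 faded by over 1.5-fold and 721 did neither. Error of the 48 h array alone puts probes among those that faded, because that array enters both the raise and the later step. Taken by the mean of both arrays 23 kept rising and 46 faded, and with normexp background correction 2 and 25. Of the 507 at the level minimum, 4 kept rising, 20 faded and 483 did neither, so that most of the fading was in dim probes. Of the 85 raised 8-fold to 16-fold at 48 h, 3 faded, among them the probe without a gene symbol that differed by -4.17. Taken instead by the mean of both arrays at the level minimum, 168 probes raised between 2-fold and 4-fold had a median 72 h minus 48 h difference of -0.08 with 37.5% higher, and 123 raised over 16-fold had a median of 0.09 with 84 (68.3%) higher and none past 1.5-fold. The 100 probes raised 4-fold to 8-fold and the 78 raised 8-fold to 16-fold lay between, with medians of 0.03 and 0.07. The median difference thus went up with the size of the raise. In this grouping the probe at -4.17 is among those raised 2-fold to 4-fold.

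**Figure D3:**
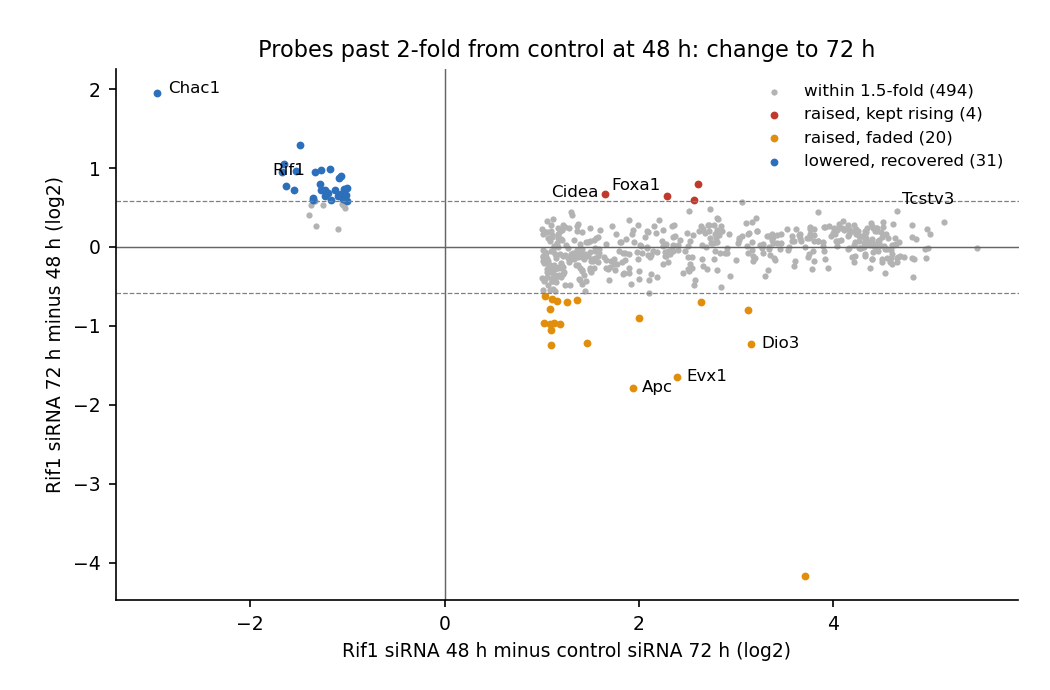
Difference between 72 h and 48 h of Rif1 siRNA (log2, vertical axis) against the difference between 48 h and control siRNA (log2, horizontal axis) for 507 raised and 42 lowered probes with a mean level of at least 0.1; both axes use the 48 h array. Most raised probes lie between the dashed 1.5-fold lines, 20 faded, 4 kept rising, and 31 of 42 lowered probes came back.

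At the level minimum 3 genes with a symbol kept rising. Cidea, a protein of lipid droplets, read 0.211 in untreated cells, 0.30 after control siRNA, 0.945 at 48 h and 1.5 at 72 h, going from 3.15-fold to 5.01-fold above control. Foxa1, a pioneer transcription factor of endoderm, read 0.0256 (not well above background), 0.0470, 0.230 and 0.359, going from 4.89-fold to 7.63-fold. The RIKEN transcript 4933408N05Rik read 0.0650, 0.0442, 0.270 and 0.469. Each of the 3 is seen by 1 probe, and their gains from 48 h to 72 h were 1.59-fold, 1.56-fold and 1.74-fold. With normexp background correction the difference of Foxa1 was 0.56, below 1.5-fold.

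The genes that faded at the level minimum were mostly low. Dio3, the deiodinase that inactivates thyroid hormone and an imprinted gene, read 0.127, 0.0490, 0.437 and 0.187 and was still 3.81-fold above control at 72 h after 8.91-fold at 48 h. Cited4, a CBP and p300 partner, read 0.329, 0.257, 0.560 and 0.288, and Ppp1r14d, an inhibitor of protein phosphatase 1, read 0.291, 0.314, 0.637 and 0.326. Both were back at the reference levels at 72 h. Evx1, a homeobox gene of the primitive streak, read 0.155, 0.0353, 0.185 and 0.0589, so that its 48 h level was near that of untreated cells and its 72 h level 1.67-fold above that of control. Of the other genes of this class, the named probes of Anxa11, Abcc5 and Lcn6 were not matched by the other probes of the same genes. The other Anxa11 probe read 7.74, 7.93, 7.53 and 7.76, and the other 3 Abcc5 probes differed by 0.01, 0.24 and 0.08 between 72 h and 48 h. Apc read 0.0998, 0.0732, 0.28 and 0.0810 on one probe and was not well above background at 48 h on its other. The 113 genes that faded had 24 further members at the level minimum that were not in this class, and 12 of these were lower at 72 h.

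The largest changes outside these classes had the same limit. Anp32a, an inhibitor of protein phosphatase 2A, read 1.78, 1.81, 1.86 and 7.34, with only the 72 h array high. Its other probe read 0.373, 0.374, 0.306 and 0.314 and showed no such rise. Gm9112 was higher at 72 h by 1.69 on 1 probe and lower by -0.20 and -0.39 on its other 2. Neurog3, a factor of endocrine pancreas, read 0.873, 1.12, 0.681 and 1.44 and had no other probe well above background. Ndufa4l2, a mitochondrial protein known to be induced in hypoxia, read 0.355, 0.567, 1.1 and 0.390, with only the 48 h array high. Patl2, an RNA-binding protein of oocytes, read 0.347, 0.367, 0.616 and 0.296, and Cyp4f14, a fatty acid hydroxylase, read 0.13, 0.13, 0.237 and 0.0856, again with the 48 h array highest. Ccny, a cyclin of the cell membrane, read 0.475, 0.650, 0.62 and 0.237, and Gm5106 read 3.38, 4.12, 3.72 and 1.74, both lowest at 72 h. Among the remaining genes with the largest rises, D430040D24Rik, 4933431K14Rik, Gm833, Ttc39a, Fam131a and Itgb3 gained between 0.95 and 2.51 on the log2 scale. The other Ttc39a and Gm833 probes well above background on both arrays differed by -0.57 and 0.19. Among those with the largest falls, Crebl2, Lgals2 and Col26a1 differed by between -1.06 and -0.96, and the other Crebl2 probe by -0.10. At the level minimum 91 genes had a probe over 1.5-fold higher (0.579% of probes), and of the 26 with several members there 5 had 2 or more probes past 1.5-fold, Parl among them. Likewise 103 genes had a probe over 1.5-fold lower (0.712%), and 9 of the 28 with several members had 2 or more such probes, Xaf1 among them.

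Many of the larger changes from 48 h to 72 h had the same direction as the difference between the 72 h control siRNA array and the untreated array, a pair of arrays that has none in common with it. Over 17862 probes at the level minimum and well above background on all 4 arrays, Pearson's r was 0.33 and Spearman's rho was 0.31 across probes, which are not independent replicates, and all 4 arrays came from 1 slide. Of 101 such probes over 1.5-fold higher at 72 h, 82 (81.2%) were higher in control siRNA than in untreated cells, where 48.9% of all these probes were. Of 126 over 1.5-fold lower, 83 (65.9%) were lower in control siRNA, where 51.1% of all were. Without the level minimum, over 22518 probes, r was 0.21 and rho 0.26, and 152 of 222 higher probes (68.5%) and 181 of 256 lower probes (70.7%) had the direction of the control difference. Harvest time, transfection and culture density cannot be told apart in these arrays.

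**Figure D4:**
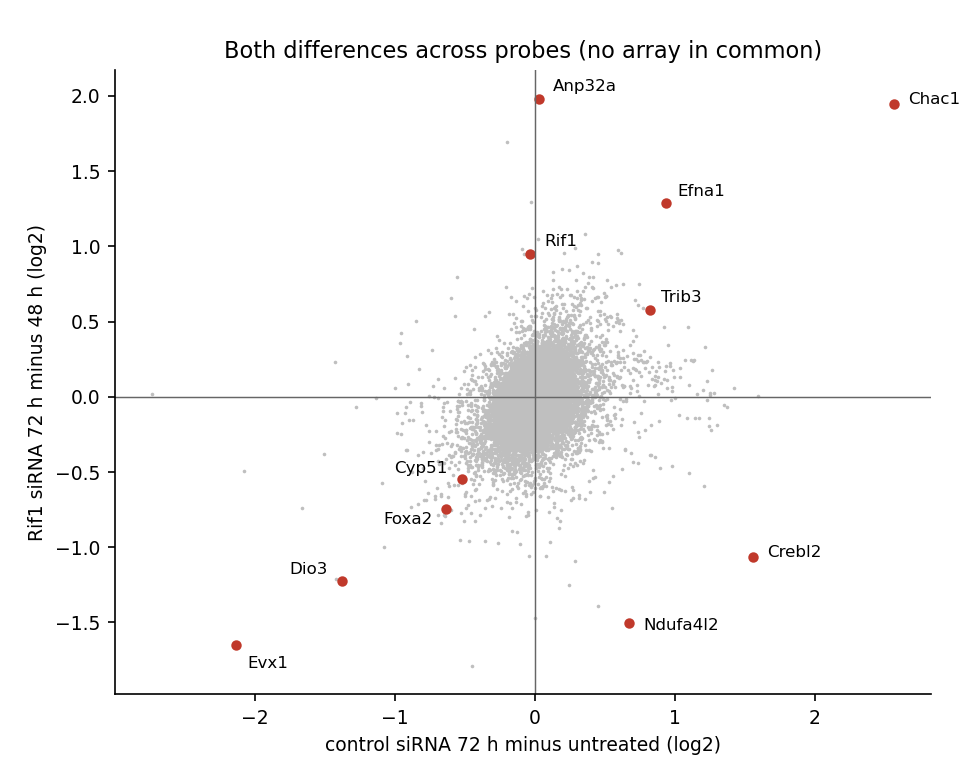
Rif1 siRNA 72 h minus 48 h (log2, vertical axis) against control siRNA 72 h minus untreated (log2, horizontal axis), 1 point per probe for 17862 probes. Chac1, Efna1 and Trib3 are high in both differences, Evx1, Dio3, Cyp51 and Foxa2 low in both, Rif1 and Anp32a rise with no difference on the horizontal axis, and Ndufa4l2 and Crebl2 lie in opposite directions.

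Several genes of the ATF4 branch of the stress response had this pattern. ATF4 is the transcription factor that answers amino acid shortage and stress of the endoplasmic reticulum. Chac1, its target and an enzyme that degrades glutathione, read 0.967 in untreated cells, 5.73 after control siRNA, 0.736 at 48 h and 2.84 at 72 h. Trib3, a pseudokinase, read 5.83, 10.3, 4.09 and 6.12, and Herpud1, a protein of endoplasmic reticulum degradation, read 1.1, 1.80, 0.842 and 1.31. In all 3 both 72 h arrays were above the other 2, and the control array was the highest. Both probes of Atf4 itself were higher at 72 h, by 0.37 and 0.59, as were Ddit4, an inhibitor of mTORC1, by 0.47 and Ddit3, which codes for CHOP, by 0.29. Of the 30 members of the list 12 were higher at 72 h and the median was -0.04, with a range from -0.57 to 1.95. Past 1.5-fold, 3 probes were higher and 0 lower. Of all members 48.8% were higher, 1.72% over 1.5-fold higher and 2.16% over 1.5-fold lower. Asns and both Cth probes, also targets of ATF4, were lower by -0.15, -0.27 and -0.25. All 12 members that were higher at 72 h were also higher in control siRNA than in untreated cells, as were 22 of all 30.

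Of 40 members for genes of sterol and fatty acid synthesis 6 were higher at 72 h (all members: 48.8%) and the median was -0.14. Insig1, a sterol sensor, read 0.492 in untreated cells, 0.231 after control siRNA, 0.296 at 48 h and 0.199 at 72 h, and Cyp51, an enzyme of cholesterol synthesis, read 0.75, 0.523, 0.724 and 0.495. Msmo1, a further enzyme of that path, read 13.4, 10.4, 11.6 and 8.72. The 72 h arrays were the lower ones for each of these 3 genes, with or without Rif1 siRNA. Of the 33 members well above background on all 4 arrays and lower at 72 h, 29 were also lower in control siRNA than in untreated cells, where 32 of all 39 such members were.

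Of 27 members for genes of the germ layers and of the primed state 10 were higher at 72 h (all members: 48.8%) and the median was -0.12. Past 1.5-fold, 0 were higher (all members: 1.72%) and 4 lower (all members: 2.16%). The 4 were Evx1 and 3 genes of primitive endoderm. Foxa2 read 0.331, 0.213, 0.330 and 0.197, Sox7 read 0.450, 0.253, 0.357 and 0.218, and Sox17 read 0.318, 0.193, 0.273 and 0.173. The other, brighter Sox17 probe read 0.471, 0.388, 0.459 and 0.338, a difference of -0.44 that fell short of 1.5-fold. Dab2, a further gene of primitive endoderm, was lower at 72 h by -0.47 and Gata6 by -0.33. Of the 17 members well above background on all arrays and lower at 72 h, 15 were lower in control siRNA than in untreated cells, where 19 of all 26 such members were. The summed level of 5 probes for the primitive endoderm markers Gata4, Gata6, Sox17 and Sox7 was 2.18, 1.59, 1.81 and 1.33 in the order untreated, control, 48 h and 72 h, while that of the 10 ES cell marker probes was 152, 158, 176 and 169.

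Naive pluripotency genes had a median distance from control of 0.14 at 48 h and 0.01 at 72 h, where the median of all members was -0.07 at both times. Of 27 members 6 were higher at 72 h (all members: 48.8%), 0 differed by over 1.5-fold and the median was -0.07. Tbx3 read 8.65, 8.26, 14.7 and 9.92, Tfcp2l1 read 5.23, 5.11, 7.25 and 4.88 on its brighter probe, and Prdm14 read 1.33, 1.14, 1.78 and 1.42. Untreated and control cells were alike for Tbx3 and Tfcp2l1, with 48 h above both. The second Tfcp2l1 probe stayed at 2.69 and 2.67. Nr0b1, a nuclear receptor cofactor, read 15.4, 13.7, 14.8 and 10.9, and the brighter Esrrb probe read 41.8, 41.2, 44.1 and 35.2. Pou5f1 went against the list, at 10.6, 11.5, 12.8 and 17.4, as did Dppa3, a maternal factor, at 0.698, 0.579, 0.568 and 0.75. Sox2 at 5.71, 5.71, 5.73 and 5.76, the brightest Nanog probe at 40.3, 43.4, 52.1 and 52.9, and Zfp42 at 37.6, 38.4, 39.6 and 37.6 differed by less than the spot error between the 2 time points.

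The LIF and STAT3 list had 17 members with 3 higher at 72 h (all members: 48.8%), a median of -0.13 and 0 past 1.5-fold. Its members Pim3, a kinase, read 5.48, 5.28, 4.67 and 3.78, and Stat3 read 5.75, 5.32, 4.89 and 4.22 on its brighter probe. Of 18 probes for immediate early genes and targets of ERK 5 were higher and the median was -0.17. Past 1.5-fold, 1 was higher (all members: 1.72%) and 2 lower (all members: 2.16%). Dusp6, a phosphatase that limits ERK, read 11.4, 9.93, 12.2 and 8.95, Spry4, an inhibitor of the same path, read 1.33, 1.23, 1.28 and 0.974, and Myc read 2.19, 1.82, 2.02 and 1.57. Ier3 went the other way at 0.456, 0.584, 0.268 and 0.444. The 2 lower ones, Fosl1 and Egr2, were dim.

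Metal, redox and hypoxia genes were highest at 48 h in several cases. Of 19 probes for oxidative stress and metallothioneins 5 were higher at 72 h (all members: 48.8%) and the median was -0.18. Among these 19, 1 was over 1.5-fold lower (all members: 2.16%). Mt1, a metallothionein that binds zinc and copper, read 81.8, 71.7, 105 and 76.0 on its brighter probe, and Mt2 read 142, 131, 171 and 141. Hmox1, which breaks down heme, was lower by -0.30 on both probes. Of 50 probes for glycolysis and hypoxia 9 were higher (all members: 48.8%) and the median was -0.09. Past 1.5-fold, 1 was higher (all members: 1.72%) and 2 lower (all members: 2.16%). Egln3, an oxygen-sensing hydroxylase, read 0.447, 0.628, 0.677 and 0.436, and Bnip3, a mitochondrial receptor for autophagy, read 11.1, 14.8, 15.9 and 11.3 on its brightest probe. In both, untreated and 72 h levels were close and the other 2 were higher. Adm and Vegfa, which are also known to be induced in hypoxia, were higher at 72 h by 0.64 and 0.37.

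Cell cycle genes differed by small steps. Of 33 probes for G2 and mitosis 31 were higher at 72 h (all members: 48.8%), with a median of 0.13 and a range from -0.28 to 1.13. Their median distance from control went from -0.25 at 48 h to -0.12 at 72 h, where the median of all members stayed at -0.07. Ube2c, the ubiquitin-conjugating enzyme of mitotic exit, read 17.6, 18.5, 13.7 and 15.9, Nusap1, a spindle protein, read 3.87, 4.32, 2.97 and 3.52, and Kif20a, a kinesin of cytokinesis, read 13.7, 13.4, 11.5 and 13.4. Each was lowest at 48 h. The only probe past 1.5-fold, of Cenpf, was dim. Of 42 probes for replication licensing and S phase 30 were higher with a median of 0.08, and of 54 for canonical histones 44 were higher with a median of 0.09, against the same 48.8% of all members. The cultures' growth and density were not measured here.

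Few probes for proteins that work with Rif1 and for repressors of 2C genes differed by over 1.5-fold. Of all members 48.8% were higher at 72 h, 1.72% over 1.5-fold higher and 2.16% over 1.5-fold lower. Of 20 probes for Rif1 partners 16 were higher, the median was 0.10 and 1 dim probe, of Trp53bp1, was past 1.5-fold. Lmnb1, the lamin B1 of the nuclear envelope, read 10.7, 11.1, 11.3 and 13.5, and Rmi1, a partner of the BLM helicase, read 2.12, 2.12, 1.96 and 2.31 on its brighter probe. Top3a, the topoisomerase of the same complex, read 2.05, 1.77, 2.34 and 1.75. The 38 probes for chromatin repressors had a median of 0.03 with 26 higher and 0 past 1.5-fold, and Smchd1, which silences the inactive X chromosome, was among the higher at 0.23 and 0.20. Dnmt3b, a de novo DNA methyltransferase, read 16.3, 15.2, 11.3 and 13.4 and 12.2, 11.7, 8.44 and 10.1 on 2 of its probes, lowest at 48 h, while Tet2, an enzyme that oxidises 5-methylcytosine, was lower at 72 h by -0.37, -0.34 and -0.16. The 21 probes of the DNA methylation list had a median of -0.03.

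**Figure D5:**
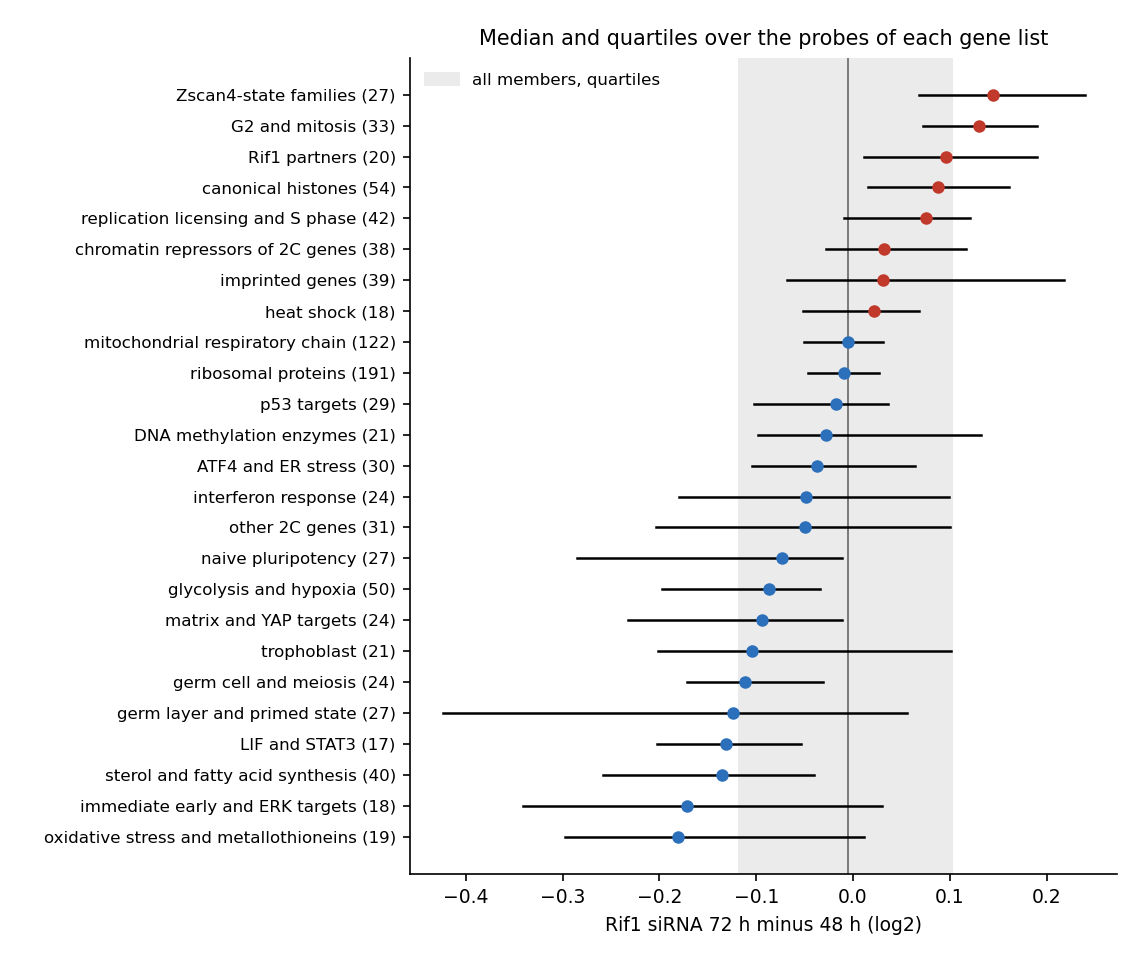
Median (point) and quartiles (line) of the 72 h minus 48 h difference (log2, horizontal axis) over the member probes of 25 gene lists, with the number of probes in parentheses and the quartiles of all members in grey. The Zscan4-state families (median 0.14) and G2 and mitosis (0.13) lie at the top and oxidative stress and metallothioneins (-0.18) at the bottom, and every median lies within 0.2 of 0.

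The remaining lists were as follows, where 48.8% of all members were higher at 72 h. Imprinted genes had a median of 0.03 over 39 probes with 23 higher, with Plagl1, a zinc finger factor, up to 0.271 at 48 h and 0.374 at 72 h from 0.152 in control, and Meg3, a noncoding RNA, at 6.31 and 4.77. Interferon response genes had a median of -0.05 over 24 probes with 11 higher. Past 1.5-fold 0 were higher (all members: 1.72%) and 4 lower (all members: 2.16%), both probes of the RNA sensor Ddx58 and both of Xaf1. The brighter Ddx58 probe read 3.50, 2.20, 2.90 and 1.84, with both 72 h arrays below the other 2. Trophoblast genes had a median of -0.10 over 21 probes with 8 higher, and Cdx2, which specifies trophectoderm, read 0.0344, 0.050, 0.0721 and 0.106, the largest rise of the list at 0.55. Gata3, a further factor of trophectoderm, read 0.0674, 0.0517, 0.186 and 0.148, a difference of -0.33. Germ cell genes had a median of -0.11 over 24 probes with 5 higher, and Dazl, an RNA-binding protein of germ cells, read 0.406, 0.274, 0.917 and 0.828. Genes of matrix and YAP signalling had a median of -0.09 over 24 probes with 6 higher, with Ccn2 at 3.15, 2.92, 6.25 and 5.2. Targets of p53 had a median of -0.02, heat shock genes of 0.02, ribosomal proteins of -0.01 over 191 probes and subunits of the respiratory chain of -0.01 over 122. Most p53 and respiratory chain members, lower at 72 h or not, were not lower in control siRNA than in untreated cells. Of those lower at 72 h and well above background on all 4 arrays, 4 of 16 and 13 of 68 were lower in control siRNA. Of all members of the 2 lists well above background on all 4 arrays, 7 of 28 and 27 of 121 were, a similar share.

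Markers of other cell types were summed by type, in the same order of arrays. Trophoblast markers summed to 0.159, 0.154, 0.333 and 0.323, with 4 of 5 probes members. Mesoderm markers summed to 0.338, 0.249, 0.348 and 0.304, neuroectoderm markers to 0.249, 0.289, 0.238 and 0.245, and fibroblast markers to 4.22, 3.80, 4.44 and 4.46, the last with 5 of 6 probes members. The fibroblast sum was mostly Thy1, at 3.50, 3.11, 3.43 and 3.24. The collagen genes Col1a1 and Col1a2 read 0.340, 0.341, 0.493 and 0.601 and 0.316, 0.309, 0.451 and 0.545, and Dcn, the proteoglycan decorin, read 0.0357, 0.0281, 0.0348 and 0.0443. These 3 were 1.22-fold, 1.21-fold and 1.27-fold higher at 72 h than at 48 h and 1.76-fold, 1.77-fold and 1.57-fold above control at 72 h. Col3a1, a further collagen gene, read 0.0217 and 0.0127 in untreated and control cells, not well above background in either, and was lower at 72 h than at 48 h by -0.25, from 0.0239 to 0.020. The part of these genes in the other results was not tested. Lum, a fibroblast gene, and Mixl1, a gene of mesoderm, were not well above background on any of the 4 arrays.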

How the data were processed

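Total RNA was labelled with Cy3 and hybridised to 4 one-colour arrays on 1 slide. The authors' scanner files give spot intensity (processed signal) and, in a second deposited table, the ratio of that intensity to the array's 75th percentile, made with Agilent Feature Extraction 11.5.1.1 per the submitters' processing notes. Probe positions in the files are of mm9. Here log2 intensity was scaled by the 75th percentile of non-control spots, outlier spots were left out and spots of a probe were averaged. Symbols came from the array's accessions through RefSeq (GRCm38.p6), or from the array's own gene name where the accession had no match. Where the reference was dim, a probe counted against it uses the higher of its own reference level and the lowest well-above-background level there. The number of arrays, 1 per condition, limits the precision, and no test was made. The classes use 2-fold against control and 1.5-fold between times. Named were Rif1, list genes, the 15 largest rises and falls and up to 8 genes per class at a mean level of at least 0.1. Members, lists and classes were chosen with earlier results of these data known. Counting functions were tested on simulated data. Python 3.11.15, pandas 2.3.3 and limma 3.58.1 (normexp) were used.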

Additional observations from a re-analysis of the deposited data

How the results depend on the processing

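No paired analysis was possible because the design holds a single array for every condition. Of 430 values recomputed under other settings, 376 moved by no more than the spot error of 0.0942 or, for counts, stayed within 1.5 times, and 0 changed sign among the named probes. Part of this tally was fixed in advance. The 36 named probes already met the level minimum, so that setting shifted them by 0. Keeping outlier spots also shifted them by 0, and the deposited ratios by at most 0.00036. The cause was not tested for any of the changes below. With normexp background correction (offset 50), 23 probes were over 2-fold higher and 44 lower, 2 kept rising, 25 faded, 14 came back and 2 fell further, and the SD was 0.17. All 36 named probes kept their direction under it, and all but Foxa1 (0.56) stayed past 1.5-fold. The sizes of their differences were less stable, with a largest shift of 0.83, for D430040D24Rik from 2.51 to 1.68. Evx1 went from -1.65 to -1.19 and Gm9112 from 1.69 to 1.28, while Anp32a stayed near its value, at 1.98 and 1.96. With a mean level of at least 0.1, the same counts were 8, 13, 4, 20, 31 and 0, and the SD was 0.19. With quantile normalization 106 probes came back, and with lowess centring 5 fell further. At 1.5-fold, 474 probes were higher and 595 lower. At a 2-fold step for the classes, 3 kept rising, 86 faded, 11 came back and 5 fell further. Counting also probes seen on 1 array by their lower bound, 289 were higher and 416 lower. Against untreated cells, 94 faded, 113 came back and 23 fell further. With probes taken by the mean of both Rif1 siRNA arrays, a choice made after the data were seen, 23 kept rising, 46 faded, 18 came back and 16 fell further. The deposited ratios and keeping outlier spots left every count within 1.5 times. Over 6 other settings the medians of the 25 gene lists shifted by at most 0.0634, and the Rif1 difference lay between 0.93 and 0.95. Of the 25 medians, 23 kept their sign with quantile normalization, 24 with lowess centring and 24 with the level minimum. All 25 did in the remaining settings. Signal near background limits what can be said of dim probes.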

Other observations

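Probes well above background on only 1 of the 2 Rif1 siRNA arrays have only a bound on their change, the bright level over the higher of the dim level and the lowest level well above background on the dim array. Of 1456 probes gained at 72 h and 439 lost, 2 of each had an outlier spot and no level on both arrays and were left out. By that bound 176 of the other 1454 gained probes were at least 2-fold higher, and 257 of the other 437 lost probes at least 2-fold lower. With a level of at least 0.1 on the bright array these were 2 and 3 probes. The largest bound among gained probes was for 2310057N15Rik, at least 15.6-fold higher, with 0.122 at 72 h and no signal well above background on the other 3 arrays. Among lost probes 4931417E11Rik was at least 34.6-fold lower, with 0.188 at 48 h and no signal well above background on the other 3. Fgf21, a hormone of the fasting and ATF4 responses, was at least 16.4-fold lower, seen only at 48 h with a level of 0.0891. The 3 were chosen after their values were seen, each rests on 1 probe and 1 array, and none was seen on a second array.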
